A study of Mus musculus with 10 samples.

Results

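The 6 conventional actin isoform genes of the mouse were followed across 10 RNA-seq libraries. They are Acta1, Acta2, Actc1, Actg2, Actb and Actg1, taken from the count table by gene symbol, 6 of its 24540 named genes. All 6 passed the filter on low counts and were tested. The libraries form 5 groups of 2. One group held untreated C57BL/6N-C2 embryonic stem (ES) cells, which grow undifferentiated with leukemia inhibitory factor. The other 4 groups held cells differentiated from an ES line and labelled cardiomyocytes. Of these, 1 group received the solvent DMSO for 24 h, and 3 received 5 nM TCDD in DMSO for 24, 72 or 96 h. TCDD (2,3,7,8-tetrachlorodibenzo-p-dioxin) is a dioxin that binds and activates the aryl hydrocarbon receptor. The ES line carried a plasmid in which the Nkx2.5 promoter, active in early heart cells, drives puromycin resistance and green fluorescent protein. It had been selected with G418, and puromycin then selected cells with an active Nkx2.5 promoter. DMSO was sampled at 24 h alone, so the 72 and 96 h TCDD groups differ from it in exposure and in time in culture, which cannot be told apart.

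Actin is the globular protein that polymerises into the thin filaments of muscle and the filaments of the cytoskeleton. Of the 6 isoforms, 4 belong to muscle. Acta1 encodes the alpha actin of skeletal muscle, Actc1 that of heart muscle, Acta2 that of vascular smooth muscle, and Actg2 the gamma actin of enteric smooth muscle. Actb and Actg1 encode the cytoplasmic beta and gamma actins present in nearly every cell. Embryonic heart muscle is known to express Acta2 and Acta1 beside Actc1, and Actc1 becomes the dominant isoform of the adult heart. Many actin genes are regulated by serum response factor (SRF), which binds a sequence called the CArG box. Its cofactors of the myocardin family (MRTF) are held back by unpolymerised actin, so the pathway senses the state of its own product.

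The 6 genes are related enough that the start of the coding sequence is shown to let the reader see how a read can, or cannot, tell them apart. All 6 lie on the minus strand, each on its own chromosome. In RefSeq GRCm38, the assembly of the mm10 build that the submitters' processing notes name, Acta1 (Entrez 11459) spans chromosome 8 from 123891758 to 123894775. Acta2 (11475) spans chromosome 19 from 34240336 to 34255585, and Actc1 (11464) chromosome 2 from 114047282 to 114052875. Actg2 (11468) spans chromosome 6 from 83512909 to 83536251, Actb (11461) chromosome 5 from 142903115 to 142907976, and Actg1 (11465) chromosome 11 from 120345687 to 120348495. The first 45 coding bases of each principal GENCODE M21 transcript follow, 5′ to 3′. Capitals mark bases that differ from Acta1 in the other muscle actins after alignment, and from Actb in Actg1.
Acta1: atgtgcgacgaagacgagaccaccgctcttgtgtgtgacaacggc
Acta2: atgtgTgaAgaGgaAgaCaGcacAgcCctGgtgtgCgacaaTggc
Actc1: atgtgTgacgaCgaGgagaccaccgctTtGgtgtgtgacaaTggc
Actg2: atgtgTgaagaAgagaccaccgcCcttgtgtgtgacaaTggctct
Actb: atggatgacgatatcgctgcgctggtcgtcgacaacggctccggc
Actg1: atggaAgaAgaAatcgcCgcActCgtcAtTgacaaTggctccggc
Acta2 differed from Acta1 at 11 of these bases, Actc1 at 6 and Actg2 at 4, and Actg1 differed from Actb at 9. Actg2 lacks a codon within this stretch, and that gap is neither marked nor counted. Its later bases are therefore shifted against the other muscle actins as printed. Actg2 has 376 codons, against 377 in the others of muscle and 375 in both cytoplasmic actins, not counting the stop codon.

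Over whole coding sequences, identity between muscle actins ran from 82.6% (Acta2 and Actc1) to 86.3% (Acta1 and Actc1), and was highest, at 88.6%, between Actb and Actg1. The longest identical run between Actb and Actg1 was 62 bases, longer than the 51-base reads, and is shown because a read inside it fits both genes.
Actb and Actg1, coding bases 889 to 950 of Actb: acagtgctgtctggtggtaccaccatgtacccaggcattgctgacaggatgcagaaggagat
Acta1 shared a still longer run of 77 bases with Actb, while the longest run between any pair of muscle actins was 38 bases, between Actc1 and Actg2. Each transcript was cut into all its stretches of 51 bases, the read length. Of these, 1.93% in Acta1, 0.302% in Acta2, 2.35% in Actb and 1.68% in Actg1 also occurred exactly in another of the 6 actins. The share was 0 in Actc1 and Actg2. With up to 2 mismatches it was between 1.66% (Acta2) and 10.2% (Actb). Actg1 stood apart, because 56.7% of its stretches occurred exactly in some other annotated gene, mostly in processed copies such as Gm12715, Gm8399 and Actg-ps1. For Actb the share was 13.3%, mostly in a transcript of Lrrc58 and in Gm15725. No source used here says how reads with several matches were counted, which leaves Actg1 and Actb levels uncertain. On the opposite strand, the spans of the annotated genes Gm20388 and A530058N18Rik contain the whole transcript of Acta1 and of Actc1. These spans include introns, and overlap with the exons of those genes was not examined. The libraries were stranded, but the strand setting of the counting is also not given. A530058N18Rik had no counts in 9 libraries and 0.0635 CPM in TCDD 72 h replicate 1.

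**Figure D1:**
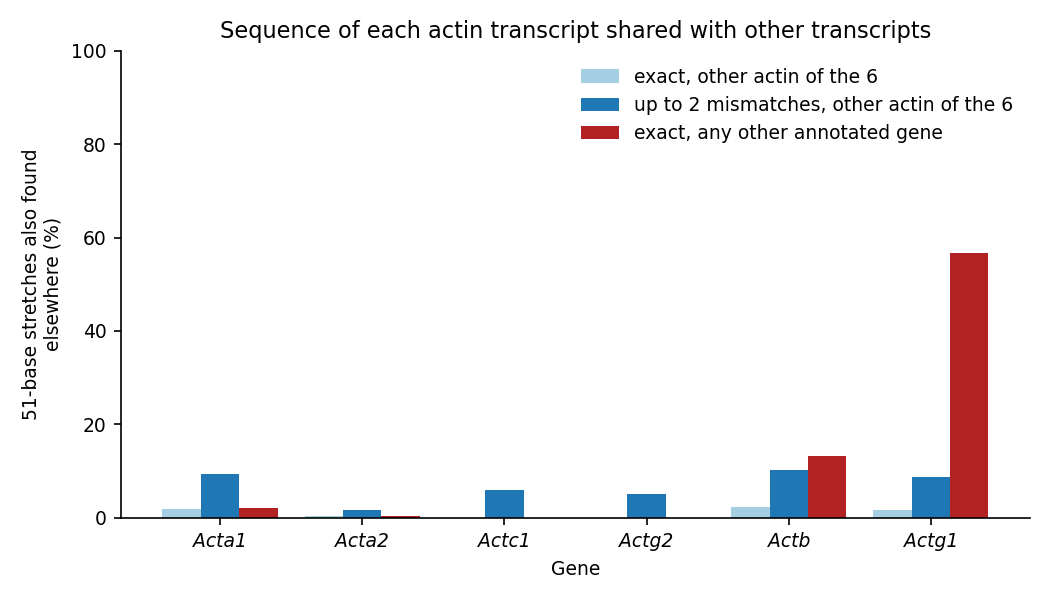
Share of the 51-base stretches of each actin transcript (percent, vertical axis) that also occur in another actin of the 6 exactly, in another actin with up to 2 mismatches, or exactly in any other annotated gene. The bar of Actg1 for any other gene reaches 56.7%, while Actc1 and Actg2 have no exact match.

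Upstream sequence was available for 4 of the 6 genes in the RefSeq table of GRCm38.p6. The bases before the start given in that table are shown for Acta1, Actc1 and Actg1, because SRF binds the promoters of many actin genes through CArG boxes. They stop where a GENCODE M21 exon of the gene begins. The table's start of Acta2, 34255373, is also where the gene ends in the count table. It lies inside the longer RefSeq span given above, and all 94 bases from just ahead of the first box to that start are exonic in a GENCODE transcript, so no stretch of Acta2 is shown. Capitals mark CArG boxes, runs of 10 bases with CC at the start, GG at the end and 6 bases of A or T between. Boxes with 1 other base among those 6 are marked too. Both strands were searched. Sequences read 5′ to 3′ on the minus strand.
Acta1, chr8:123894776-123894990: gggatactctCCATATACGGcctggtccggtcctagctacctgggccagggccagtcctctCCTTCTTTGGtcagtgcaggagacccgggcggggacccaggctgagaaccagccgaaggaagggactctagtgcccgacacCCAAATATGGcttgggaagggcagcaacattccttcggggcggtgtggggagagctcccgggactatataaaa
Actc1, chr2:114052888-114053060: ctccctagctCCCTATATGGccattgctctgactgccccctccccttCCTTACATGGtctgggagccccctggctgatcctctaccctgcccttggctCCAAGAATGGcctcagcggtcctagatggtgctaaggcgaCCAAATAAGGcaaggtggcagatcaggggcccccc
Actg1, chr11:120348543-120348595: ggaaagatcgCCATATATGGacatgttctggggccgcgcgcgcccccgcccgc
Acta1, Actc1 and Actg1 each held 1 exact box, whose first base lay 73, 47 and 90 bases before the table's start. Boxes with 1 mismatch numbered 2 in Acta1, 3 in Actc1 and 2 in Acta2. Those of Acta2 lay 84 and 34 bases before the table's start, inside the RefSeq span of the gene. Of all 32851 windows of 300 bases in the table (250 before and 50 after a start), 1.63% held an exact box and 9.98% a box with at most 1 mismatch. These are matches of letters and were not measured as binding. Actb and Actg2 were not searched.

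Each library held between 15326612 and 31192459 counts, fewest in TCDD 72 h replicate 1. Values below are CPM, the count scaled to the TMM-adjusted library size. With no count seen, a level up to 3 counts remains possible, which lay between 0.0962 and 0.196 CPM before TMM scaling, and it covers counting error only. Nothing in the labels ties the replicates to separate cultures, and every p-value rests on the spread between libraries, which may be technical. Cyp1a1, the classical target of the aryl hydrocarbon receptor, stood at 0.842 to 1.91 CPM in the 4 libraries without TCDD and at 7.499 to 17.5 CPM in the 6 with it. The cells labelled cardiomyocytes carried few heart transcripts. Over 14 cardiomyocyte markers the summed level was 22.4 and 29.0 CPM in ES cells and 45.04 to 103.7 CPM in the differentiated libraries. Between 4 and 6 of the 14 were under 1 CPM in each differentiated library, and none was at 0 there. The pluripotency markers summed to 2163 to 3749 CPM in the same 8 libraries and to 5387 and 7387 CPM in ES cells. Among the libraries 3 stood apart. ES replicate 2 and TCDD 24 h replicate 1 had the strongest trends of expression with GC content (ranges of 2.74 and 1.42 log2 units, against 0.24 to 1.20). TCDD 72 h replicate 1 held 106531 CPM of the ribosomal RNA gene Rn45s, against 13724 to 48150 CPM elsewhere.

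The cytoplasmic actins were by far the more abundant in every library. On the scale of CPM per kilobase of transcript, which allows genes to be compared, Actb stood at 1909 and 1931 and Actg1 at 2018 and 1928 in the DMSO libraries. Among the muscle actins of the same libraries, Acta2 followed with 140.2 and 138.8 and Acta1 with 35.6 and 34.3. Actg2 (2.84 and 2.01) and Actc1 (2.05 and 1.46), the heart isoform, were the lowest. Within a library the log2 ratio of Actg1 to Actb on this scale was −0.25 and −0.11 in ES cells, 0.08 and −0.0023 in DMSO cells, 0.20 and 0.09 at 24 h of TCDD, −0.32 and −0.04 at 72 h, and 0.09 and 0.03 at 96 h. Actb was thus the higher in both libraries of ES cells and 72 h, and Actg1 in both of TCDD at 24 and 96 h. The libraries of Actg2 and Actc1 overlapped in the DMSO group. Acta2 was above Acta1 in all 8 differentiated libraries. Actc1 per kilobase was above Actg2 in all 6 TCDD libraries, and it reached 7.58 and 5.88 at 96 h, where Actg2 had 1.93 and 2.09. Together the 6 genes took 0.540 and 0.663% of all counts in ES cells, 0.834 and 0.828% in DMSO cells, and 0.793 to 1.16% in the TCDD libraries. The libraries of this study are bulk RNA, so a change in the number of cells of a type and a change in RNA per cell cannot be told apart.

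**Figure D2:**
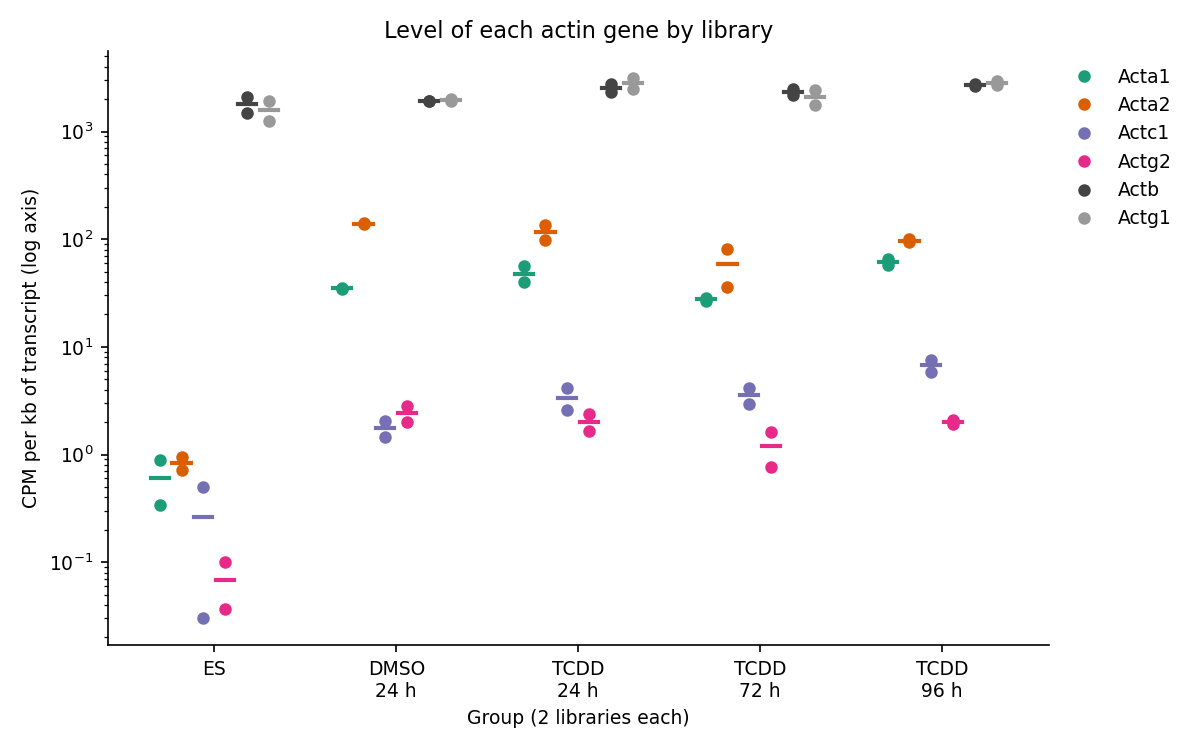
Level of each actin gene in each of the 10 libraries, as CPM per kilobase of transcript on a log axis, by group (2 libraries each). Points are libraries and bars are group means. The 4 muscle actins lie under 1 in ES cells and above it in DMSO cells, while Actb and Actg1 lie between 1255 and 3160 in every library.

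Between ES cells and DMSO cardiomyocytes, all 4 muscle actin genes rose and neither cytoplasmic actin gene passed the test. Acta2 stood at 1.46 and 1.91 CPM in the ES libraries and at 285.3 and 282.4 CPM in the DMSO libraries. It rose 168-fold (log2 fold change 7.39 ± 0.47 SE, edgeR adjusted p = 2.62e-05). Acta1 stood at 0.487 and 1.27 CPM in ES cells and at 51.4 and 49.6 CPM in DMSO cells. It rose 57.7-fold (5.85 ± 0.40 SE, edgeR adjusted p = 3.27e-05). The libraries of both genes were far apart between the groups, and the DMSO libraries differed from each other by little.

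Actg2 and Actc1 started from almost no counts. Actg2, the enteric isoform, had 3 and 1 counts in the ES libraries (0.133 and 0.0490 CPM) and reached 3.79 and 2.68 CPM in DMSO cells. The ratio over both libraries, 180 counts against 4, was 36.1, with a 95% interval of 14.1 to 132 that covers counting error of the ES counts alone (log2 fold change 5.06 ± 0.58 SE, edgeR adjusted p = 3.57e-04). Actc1 had 1 and 15 counts in the ES libraries (0.0443 and 0.735 CPM) and 3.03 and 2.15 CPM in DMSO cells. Its ratio was 7.21 (4.44 to 12.6), with a log2 fold change of 2.77 ± 0.69 SE (edgeR adjusted p = 0.0162). The ES libraries of Actc1 were unequal, and 15 of its 16 ES counts came from replicate 2, the library with the strongest GC trend. Leaving that library out gave a log2 fold change of 5.73, above the 4.57 of Actg2 without it, and leaving out ES replicate 1 gave 1.83 against 5.92, so the order of the rises of these genes rests on 1 ES library. The call of Actc1 ended without DMSO replicate 1 (2.5, edgeR adjusted p = 0.0910) and when the fit held ES and DMSO libraries alone (2.83, edgeR adjusted p = 0.0845).

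Actb stood at 2866 and 3993 CPM in ES cells and at 3665 and 3708 CPM in DMSO cells, so the DMSO libraries lay inside the ES range (log2 fold change 0.10 ± 0.23 SE, edgeR adjusted p = 0.751). Actg1 stood at 2449 and 3758 CPM in ES cells and at 3939 and 3764 CPM in DMSO cells. The DMSO libraries were above both ES libraries, by very little for the upper one (0.31 ± 0.28 SE, edgeR adjusted p = 0.408). Without the 3 libraries that stood apart, which leaves 1 ES library, the log2 fold changes were 0.36 for Actb and 0.65 for Actg1. The 4 calls among 6 actins compare with a background of 31.0% of 15175 tested genes called in this comparison, 15.5% in the upward direction. In 5 of the 6 actins both DMSO libraries were above both ES libraries, which was so for 36.4% of all tested genes. As a share of all actin transcripts per length, the 4 muscle actins made up 0.0431 and 0.0588% in ES cells and 4.40 and 4.37% in DMSO cells.

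Genes around the actins were mixed in the same comparison, except for the targets of SRF. Of 30 tested SRF and MRTF targets other than actins, 18 rose and 1 fell (63.3% called), with a median log2 fold change of 1.49 against 0.01 over all tested genes. Tagln, which encodes the smooth muscle actin-binding protein transgelin, rose from 3.91 ± 1.33 to 271.1 ± 7.82 CPM (SD, n = 2, log2 fold change 6.12, edgeR adjusted p = 1.44e-05). Cnn1 (calponin, 5.53) and Myl9 (a myosin light chain of smooth muscle, 4.55) rose too, while Cnn3 (−0.68), the acidic calponin, fell (edgeR adjusted p = 2.22e-05, 2.62e-05 and 0.0483). Of 14 SRF and MRTF regulators 6 rose and 2 fell (57.1% called), with a median of 0.47. Among them the LIM protein gene Fhl2 (4.66), the kinase gene Rock1 (3.82) and Myocd, the myocardin gene (2.86), rose. Elk3 (−0.88), a partner of SRF, and the GTPase gene Rhoc (−1.06) fell (edgeR adjusted p from 3.66e-05 to 0.0214). Myocd stayed low, at 0.366 ± 0.0444 CPM in DMSO cells against 0.0466 ± 0.00330 in ES cells (SD, n = 2).

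Genes of filament assembly and of actin folding were called in shares near those of all tested genes, of which 31.0% were called in this comparison and 15.5% called higher. Of 40 tested genes of filament assembly 7 rose and 4 fell (27.5% called, 17.5% higher, median 0.13), with rises in Lmod1, which nucleates filaments in smooth muscle (2.19), in Gsn, the severing protein gelsolin (2.11), and in Cap2, a cyclase-associated protein that binds actin monomers (1.77). Vil1, the villin gene (−1.87), Wasf2, an activator of branched filament growth (−0.94), and the actin-sequestering thymosin gene Tmsb10 (−1.03) fell. Of 20 tropomyosins and crosslinkers 8 rose and 2 fell (50% called, 40% higher, median 0.60). The lists overlap, and the rising Tpm1, Tpm2, Tpm4 and Vcl are counted among the SRF targets too. Tpm1 and Tpm2, tropomyosins that lie along the filament, rose by the same log2 fold change of 2.78, Flnc (filamin C) rose by 1.94, and Lcp1 (L-plastin, −0.74) and Tln2 (talin-2, −0.69) fell. Of 21 genes of actin folding and modification 4 rose and 1 fell (23.8% called, 19% higher, median −0.02), including Mical2 (1.97), which oxidises actin, and the prefoldin genes Vbp1 (2.03), Pfdn4 (1.16) and Pfdn5 (−0.71). Of 9 tested members of the wider actin family, such as actin-related proteins, 0 rose and 1 fell (11.1% called, median −0.28), Actr5 (−0.97), an actin-related protein of the nucleus. All the named changes passed at an edgeR adjusted p of at most 0.0358.

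Markers of cell types that use muscle actins also differed between ES and DMSO cells. The 10 smooth muscle markers summed to 84.0 and 137.1 CPM in ES cells and to 461.4 and 449.7 CPM in DMSO cells, with 7 higher and 0 lower. Of those higher, Tagln, Cnn1, Myl9, Myh11, Lmod1 and Myocd are also counted in the gene lists above. Of the cardiomyocyte markers 5 of 13 tested were higher and 0 lower, and of the skeletal muscle markers 3 of 4 were higher and 1 lower. The summed skeletal level was 245.8 and 433.8 CPM in ES cells against 186.3 and 171.7 CPM in DMSO cells, with 6 or 7 of its 9 markers under 1 CPM in each. Nearly all of this sum was Mylpf, a fast skeletal myosin light chain gene, which fell from 242.6 and 430.7 CPM to 176.8 and 161.5 CPM (log2 fold change −0.99, edgeR adjusted p = 0.0338). The other 8 markers summed to 3.2 and 3.1 CPM in ES cells and to 9.5 and 10.2 CPM in DMSO cells, and Tnnt3, Tnni2 and Myh3, genes of troponin and myosin subunits, were the 3 higher. Of the fibroblast markers 6 of 8 were higher, of the epithelial markers 5 of 6, and of the endothelial markers 1 of 5 with 3 lower. Of the pluripotency markers 3 of 6 were lower. These counts compare with 31.0% of all tested genes called in this comparison and 15.5% called higher. The part of these cell types in the actin levels was not tested.

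After 24 h of TCDD no actin gene passed the test against DMSO. The TCDD libraries were above both DMSO libraries for Actb, Actg1, Acta1 and Actc1, and below both for Acta2. Actc1 stood at 6.11 and 3.84 CPM against 3.03 and 2.15 CPM in DMSO cells, a log2 fold change of 0.93 ± 0.54 SE (edgeR adjusted p = 0.521). Acta1 stood at 80.9 and 57.6 CPM against 51.4 and 49.6 (0.46 ± 0.31 SE, edgeR adjusted p = 0.522). The GC trend at the GC content of Acta1 was 0.30 log2 units in TCDD replicate 1, the largest of the 6 actins there. It was −0.02 in TCDD replicate 2 and −0.09 and −0.10 in the DMSO libraries. Acta2 stood at 275.0 and 198.6 CPM against 285.3 and 282.4 (−0.26 ± 0.34 SE, edgeR adjusted p = 0.694). In each of these genes TCDD replicate 1 was the higher of the pair, and for Acta2 it nearly reached the DMSO level.

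Actg2 stood at 3.15 and 2.21 CPM, overlapping the DMSO libraries (−0.28 ± 0.37 SE, edgeR adjusted p = 0.696). Actb stood at 5298 and 4447 CPM against 3665 and 3708 (0.40 ± 0.23 SE, edgeR adjusted p = 0.521), and Actg1 at 6168 and 4822 CPM against 3939 and 3764 (0.51 ± 0.28 SE, edgeR adjusted p = 0.521). Across all genes edgeR called 0 of 15175 (0%), limma-voom 0 and DESeq2 41, and 8.54% had an unadjusted p under 0.05, with 0 actins among them. The 4 actins with both TCDD libraries above DMSO, and the 1 below, compare with 35.5% and 33.0% of all tested genes. Without the 3 libraries that stood apart, which leaves 1 library at 24 h, the log2 fold change of Acta2 was −0.51.

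At 72 h Acta2 and Actg2 had their lowest means among the differentiated groups, and again no actin gene passed. Acta2 stood at 72.5 and 164.9 CPM against 285.3 and 282.4 CPM in DMSO cells, a log2 fold change of −1.26 ± 0.35 SE (unadjusted p = 0.00580, edgeR adjusted p = 0.170). Actg2 stood at 1.02 and 2.17 CPM against 3.79 and 2.68 (−1.0 ± 0.39 SE, unadjusted p = 0.0322, edgeR adjusted p = 0.288). Both TCDD libraries of both genes were below DMSO, and replicate 1, the library rich in ribosomal RNA, was the lower of the pair in each. DESeq2 called Acta2 lower (−1.29, DESeq2 adjusted p = 0.0295). Without replicate 2 the log2 fold change of Acta2 was −1.99 in edgeR. With replicate 2 alone, after removal of the 3 libraries that stood apart, it was −0.80. Either fit leaves 1 library at 72 h.

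Of the other actins at 72 h, Actc1 lay about as far above DMSO as Actg2 lay below it, and the rest were nearer. Acta1 stood at 38.8 and 41.2 CPM, below both DMSO libraries (−0.34 ± 0.31 SE, edgeR adjusted p = 0.686). This too was its lowest mean among the differentiated groups. Actc1 stood at 6.09 and 4.34 CPM, above both (0.99 ± 0.55 SE, edgeR adjusted p = 0.453). Actb stood at 4184 and 4762 CPM (0.28 ± 0.23 SE, edgeR adjusted p = 0.651), above DMSO, and Actg1 at 3411 and 4714 CPM, on either side of it (0.08 ± 0.28 SE, edgeR adjusted p = 0.944). Of all genes 7 passed (0.0461%) by edgeR, 5 by limma-voom and 310 by DESeq2, and 14.6% had an unadjusted p under 0.05, as did 2 of the 6 actins. Libraries did not overlap in 2 actins above and 3 below DMSO, against 29.0% and 26.6% of all tested genes.

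At 96 h Actc1 reached its highest level of the study. It stood at 11.2 and 8.66 CPM against 3.03 and 2.15 CPM in DMSO cells, 3.80-fold higher (log2 fold change 1.93 ± 0.54 SE), with an unadjusted p of 0.00614 and an edgeR adjusted p of 0.177. Acta1 stood at 94.1 and 83.7 CPM against 51.4 and 49.6 (0.82 ± 0.31 SE, unadjusted p = 0.0259, edgeR adjusted p = 0.307). Acta2 stood at 202.8 and 192.8 CPM against 285.3 and 282.4 (−0.52 ± 0.35 SE, edgeR adjusted p = 0.673). The replicates of this group were close to each other, Actc1 and Acta1 were above DMSO in both, and Acta2 was below it in both.

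Actg2 stood at 2.57 and 2.79 CPM, overlapping DMSO (−0.28 ± 0.37 SE, edgeR adjusted p = 0.910). Actb stood at 5323 and 5114 CPM (0.50 ± 0.23 SE, edgeR adjusted p = 0.439) and Actg1 at 5766 and 5297 CPM (0.52 ± 0.28 SE, edgeR adjusted p = 0.535), all above both DMSO libraries. Of all genes 13 passed (0.0857%) by edgeR, 19 by limma-voom and 249 by DESeq2, and 12.2% had an unadjusted p under 0.05, as did 2 of the 6 actins. Non-overlap was seen in 4 actins above and 1 below DMSO, against 34.5% and 32.2% of all tested genes.

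The calls at 96 h differed with the libraries in the fit and with the method. When the fit held the DMSO and 96 h libraries alone, 5 of the 6 actins passed, with Acta1, Actc1, Actb and Actg1 higher and Acta2 lower (edgeR adjusted p from 1.75e-04 to 0.00207). The fold changes moved by at most 0.04 on the log2 scale, and 4383 of all genes passed in that fit, so the members' count is again to be read against a raised background. Without the 3 libraries that stood apart the same 5 genes passed among 4397. DESeq2 called Actc1 alone of the 6 (1.91, DESeq2 adjusted p = 0.0103). In edgeR, Actc1 alone also passed with the GC offset (1.88, edgeR adjusted p = 0.0498). How many of all genes passed with the offset is not given here. Without either ES library, which leaves a lone ES library, the log2 fold change of Actc1 was 1.92 each.

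**Figure D3:**
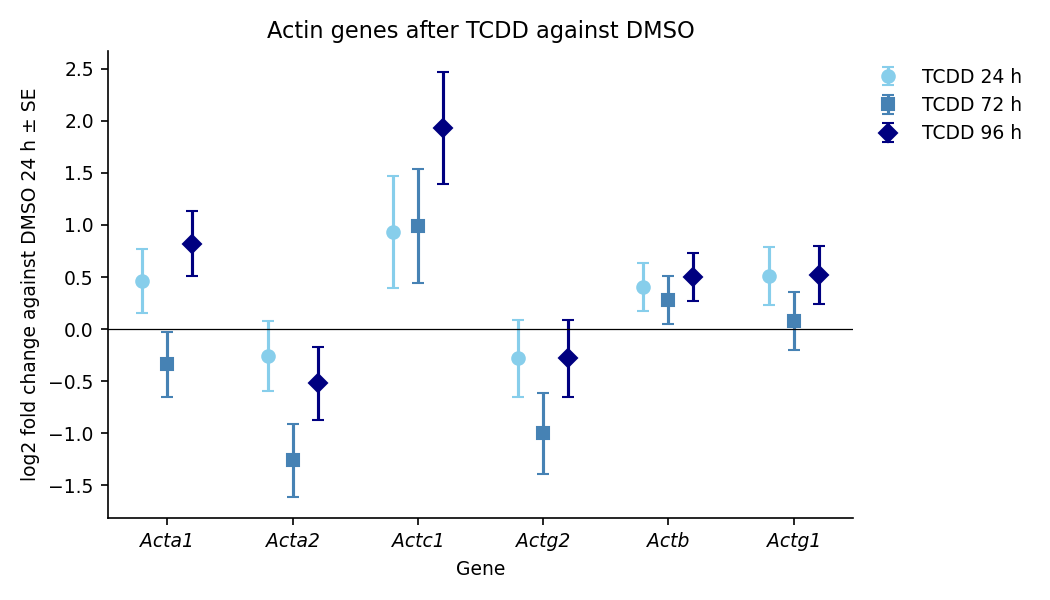
Log2 fold change of each actin gene after 24, 72 and 96 h of TCDD against the DMSO libraries, with bars of 1 SE (edgeR, 2 libraries per group). Actc1 lies above 0 and Acta2 below 0 at all 3 times, and Acta1 lies at 0.46, −0.34 and 0.82. The 3 comparisons share the DMSO libraries, and no point passed the test.

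Between TCDD times, no actin gene passed either. Comparing 72 and 96 h together with 24 h, log2 fold changes ran from −0.63 ± 0.29 SE for Acta2 (edgeR adjusted p = 0.252) to 0.53 ± 0.46 SE for Actc1 (edgeR adjusted p = 0.484), and the libraries overlapped in all 6 genes. EdgeR called 0 of all genes (0%), limma-voom 0 and DESeq2 465, with 20.9% at an unadjusted p under 0.05 and 0 actins among them. A further pair of comparisons was chosen after the values had been seen. From 24 to 72 h the log2 fold change was −0.79 ± 0.31 SE for Acta1 and −1.0 ± 0.35 SE for Acta2 (unadjusted p = 0.0298 and 0.0188, edgeR adjusted p = 0.201 and 0.177). Across all genes edgeR called 0 (0%), limma-voom 0 and DESeq2 622, and 21.6% had an unadjusted p under 0.05. From 72 to 96 h it was 1.15 ± 0.31 SE for Acta1 (unadjusted p = 0.00471, edgeR adjusted p = 0.935). All 6 actins had both 96 h libraries above both 72 h libraries, against 18.6% of all tested genes, while edgeR called 0 of all genes (0%) and 4.68% had an unadjusted p under 0.05. Without the 3 libraries that stood apart, which leaves a lone library at 24 h and at 72 h, the change of Acta1 from 72 to 96 h was 1.11. Without TCDD 72 h replicate 2, that of Acta2 was 1.47 from 72 to 96 h and −1.74 from 24 to 72 h. With 1 library left out, Acta1 ran from −1.04 to −0.54 between 24 and 72 h. Acta2 was called from 24 to 72 h in a fit of the 24 and 72 h libraries alone (−1.0, edgeR adjusted p = 0.0211). How many of all genes passed in that fit is not given here.

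The make-up of the muscle actin transcripts, taken per length within each library, does not depend on library size. Acta2 made up 77.6 and 78.6% of them in DMSO cells, 68.4 and 68.9% at 24 h of TCDD, 52.9 and 71.0% at 72 h, and 57.2 and 59.0% at 96 h. Acta1 made up 19.7 and 19.4%, then 28.3 and 28.1%, then 39.8 and 25.0%, then 37.4 and 36.0% in the same order of groups. All 6 TCDD libraries were below both DMSO libraries in the share of Acta2 and above both in that of Acta1. As Acta1 and Acta2 make up nearly all of the muscle actin sum, their shares largely mirror each other and are not separate observations. The share of Actc1 was 1.14 and 0.827% in DMSO cells, 2.10 and 1.84% at 24 h, 6.14 and 2.59% at 72 h, and 4.35 and 3.66% at 96 h. It too was above DMSO in all 6 TCDD libraries, and the 2 libraries of the 72 h group were the farthest apart.

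**Figure D4:**
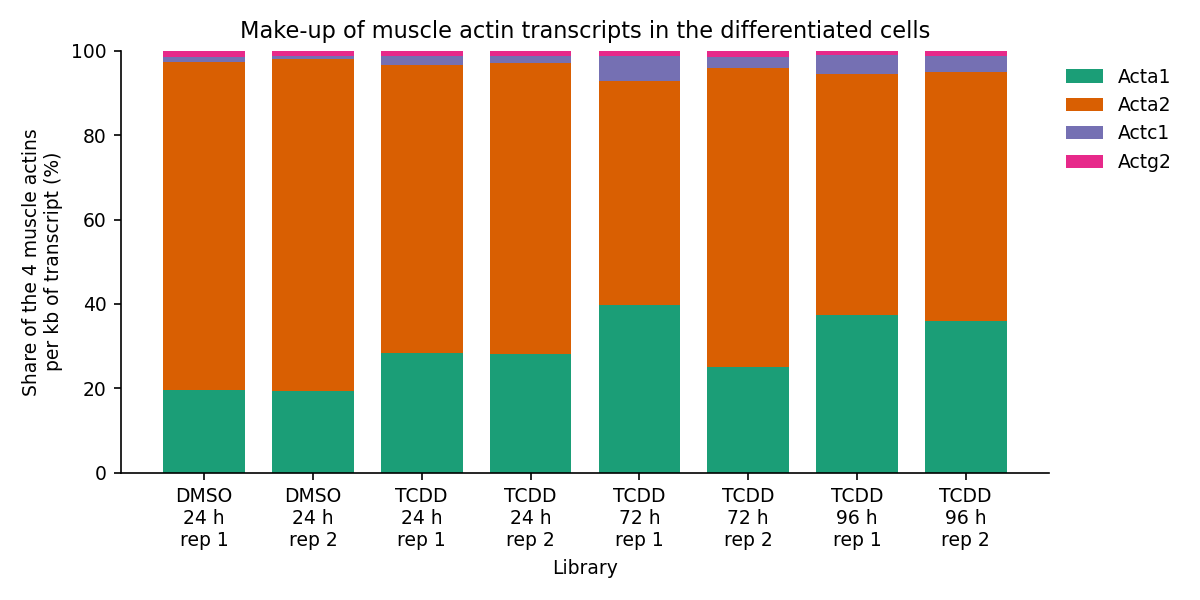
Share of each of the 4 muscle actins (percent of their summed CPM per kilobase of transcript) in the 8 libraries of the differentiated cells. Acta2 takes 77.6 and 78.6% in the DMSO libraries and 52.9 to 71.0% in the TCDD libraries.

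A design of 2 against 2 cannot reach p = 0.05 in a permutation test, so the 4 libraries of 72 and 96 h were compared with the 4 of 24 h, DMSO and TCDD together. Each side holds 2 groups of 2 libraries, which the test treats as 4 alike, and the later side is all TCDD while the earlier one holds 2 DMSO libraries. Time and exposure cannot be told apart in these p-values. The muscle actins made up 2.45 ± 0.597% of actin transcripts per length in the later libraries (SD, n = 4) and 3.72 ± 0.783% in the earlier ones (SD, n = 4). The difference of −1.27 percentage points gave p = 0.0857 in a two-sided exact permutation test, whose smallest possible p is 0.0286. Per library the share was 4.40 and 4.37% in DMSO cells, 3.23 and 2.88% at 24 h, 1.69 and 2.28% at 72 h, and 2.95 and 2.90% at 96 h, so the DMSO libraries were the highest and the 72 h libraries the lowest, while those of 24 h and 96 h of TCDD overlapped. With coding length, or with no length, in place of transcript length the later and earlier libraries no longer overlapped (−1.33 in each case, exact permutation p = 0.0286). The margin was narrow, because TCDD 24 h replicate 2 lay only just above TCDD 96 h replicate 1.

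A further 5 measures were tested in the same way and adjusted over all 6. The share of Actc1 among muscle actins was 4.19 ± 1.49% in the later and 1.48 ± 0.593% in the earlier libraries (SD, n = 4), with no overlap (exact permutation p = 0.0286, the smallest the design allows, adjusted p = 0.129). The shares of Acta1 (34.6 against 23.9%) and Acta2 (60.0 against 73.4%), which largely mirror each other, each gave an exact permutation p of 0.0857 (adjusted p = 0.129). The share of Actg2 was 1.24 against 1.27% (exact permutation p = 0.771). The log2 ratio of Actg1 to Actb per length was −0.06 ± 0.18 against 0.09 ± 0.08 (SD, n = 4, exact permutation p = 0.171, adjusted p = 0.205). It was lowest, at −0.32, in TCDD 72 h replicate 1.

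Tagln and Cnn1, both SRF targets of smooth muscle that rose beside Acta2 in DMSO cells, were picked after their values were seen. They lay on the other side of DMSO from Acta2 at 24 and 96 h of TCDD, while some other SRF targets lay on its side at 24 h. Tagln stood at 276.7 and 265.6 CPM in DMSO cells, 469.3 and 360.0 at 24 h, 292.3 and 331.3 at 72 h, and 546.7 and 517.6 at 96 h. Cnn1 stood at 25.7 and 24.3 CPM in DMSO cells, 50.8 and 41.3 at 24 h, 25.5 and 40.1 at 72 h, and 76.4 and 65.1 at 96 h. Both genes were above both DMSO libraries at 24 and 96 h, where Acta2 was below them. Of all tested genes 35.5% were above both DMSO libraries at 24 h and 34.5% at 96 h. Below both at 24 h lay the listed SRF targets Myh11 (0.806 and 0.833 CPM against 1.13 and 1.10), Cald1 (102.4 and 134.7 against 164.7 and 186.1) and Fhl1 (44.4 and 46.1 against 61.15 and 63.84). Egr1 lay below both too (7.18 and 6.12 against 8.16 and 7.74). At 96 h Myh11 and Egr1 were above DMSO, and Cald1 and Fhl1 overlapped it. At 96 h against DMSO the log2 fold changes of Tagln and Cnn1 were 0.97 ± 0.24 and 1.50 ± 0.25 SE (edgeR adjusted p = 0.143 and 0.0746), beside −0.52 for Acta2, and neither passed. Srf itself stood at 77.7 and 81.3 CPM in DMSO cells and at 133.8 and 116.8 CPM at 96 h (0.66 ± 0.21 SE, edgeR adjusted p = 0.236).

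No gene of the 6 actin-related lists passed in any comparison of a TCDD group with DMSO. The median of the 30 SRF and MRTF targets was 0.33 at 24 h, 0.19 at 72 h and 0.59 at 96 h, against 0.02, 0.03 and 0.01 over all tested genes. That of the 40 assembly genes was 0.17, −0.09 and 0.17, and that of the 20 tropomyosins and crosslinkers 0.22, −0.04 and 0.23. The 14 regulators (0.13, 0.08 and 0.03), the 21 folding genes (0.20, −0.23 and 0.08) and the 9 other family members (0.29, −0.11 and 0.06) gave small values too. The summed smooth muscle markers were 461.4 and 449.7 CPM in DMSO cells, 773.1 and 594.8 at 24 h, 486.6 and 558.0 at 72 h, and 863.9 and 799.3 at 96 h. The summed cardiomyocyte markers were highest in TCDD 72 h replicate 1, at 103.7 CPM against 45.04 to 61 in the other differentiated libraries. Ttn, the gene of the giant sarcomere protein titin, made up 65.3 CPM of that, and without it this library had 38.4 CPM against 34.6 to 42.16 CPM in the others. None of the 7 marker lists had a member called in these comparisons, and their part in the actin values was not tested.

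**Figure D5:**
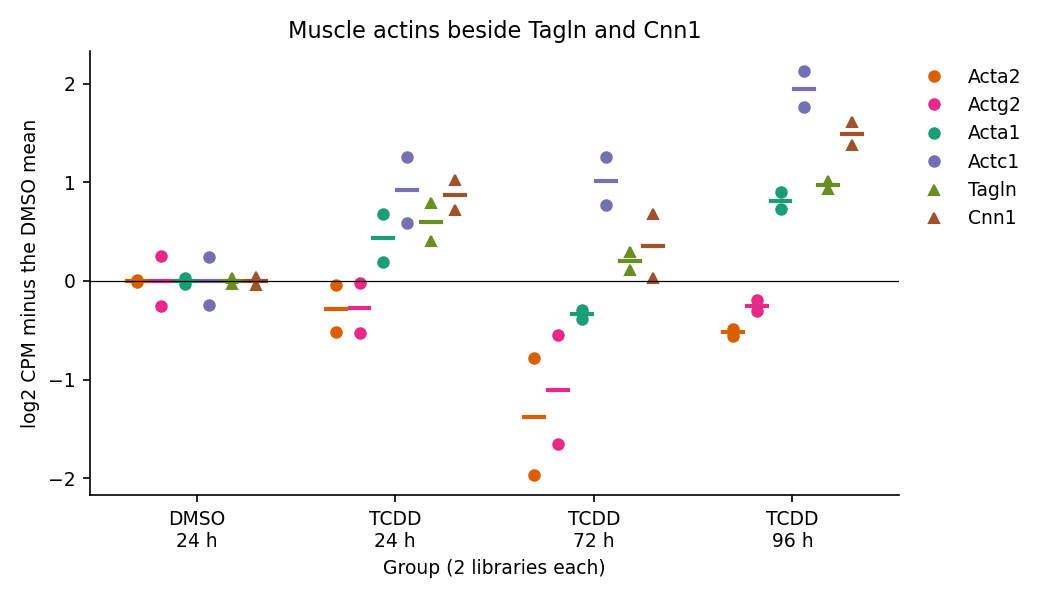
Log2 CPM of the 4 muscle actins, Tagln and Cnn1 in the differentiated libraries, minus the mean of the DMSO libraries. Points are libraries and bars are group means (2 libraries each). At 96 h Acta2 and Actg2 lie below 0, and Tagln, Cnn1, Acta1 and Actc1 above it. Tagln and Cnn1 were picked after their values were seen.

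Over all 10 libraries the correlation of log2 CPM between actins ran from 0.56 (Actb and Actg2) to 0.99 (Acta2 and Actg2). It was 0.98 between Acta1 and Acta2, and 0.95 both between Acta1 and Actg2 and between Actb and Actg1. Over the 8 differentiated libraries it was highest between Acta2 and Actg2 (0.95), followed by Actb and Actg1 (0.88). Actb and Actc1 and also Acta1 and Actg1 stood at 0.84, and Acta1 and Acta2 at 0.45. Acta2 and Actc1, at 0.84 over all libraries, stood at −0.34. These are descriptions of few libraries that share their groups and their depth. Among 10140 other tested genes with a mean of at least 5 CPM, those most like each actin over 10 libraries were Efnb1, Id3 and Cnn2 for Acta1 (Pearson r from 0.996 to 0.997) and included Pmp22 and Jph2 for Acta2 (0.994 each). For Actc1 they were Cyr61, Zfp651 and Clu (0.981 to 0.984), and for Actg2 they included Mex3b and Arid3a (0.990 each). For Actb they were Ndn, Fam83h and Itprip (0.980 to 0.982), and for Actg1 Psme2, Sft2d2 and Ociad1 (0.973 to 0.991). Over the 8 differentiated libraries, where the distance to ES cells has no part, none of these recurred except Psme2 for Actg1. The 3 genes most alike were then Tmem237, Sfn and Tuft1 for Acta1, Rgcc, Ckb and Rasa3 for Acta2, and Cntfr, Tspan13 and Tmem185a for Actc1. They were Plpp1, Dennd5a and Hacl1 for Actg2, Trim54, Vamp8 and Ccdc102a for Actb, and Eno3, Psme2 and Ogfr for Actg1.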

How the data were processed

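Polyadenylated RNA was made into stranded dUTP libraries and sequenced as 51-base single reads, per the labels' protocols. The authors deposited raw counts per gene for 10 libraries. The submitters' processing notes list TopHat, edgeR, CASAVA 1.8, bcl2fastq and the build mm10, and say nothing of the counting tool, its strand setting or reads with several matches. Of 24541 rows, 1 named no gene and was dropped (0.000201 to 0.00285% of the total).

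The quasi-likelihood test of edgeR 4.0.16 in R 4.3.3 was run over the 10 libraries together, with a mean for each group, robust dispersion, TMM scaling and filterByExpr. It covered 15175 genes (61.8%) with 5 residual degrees of freedom. A gene passed at a two-sided Benjamini-Hochberg adjusted p under 0.05 over all tested genes of a comparison. The comparisons numbered 7. The script was tested on simulated counts. CPM used TMM-scaled libraries, and log2 CPM a prior count of 2. Levels per kilobase used the length of the principal GENCODE transcript. Shares were compared with exact permutation tests (scipy 1.17.1), and coding sequences were aligned with Biopython 1.88.

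The 6 genes, the gene lists and the tests were chosen with earlier results of these data known. The text names the 6 actins, up to 3 passing genes per list and direction by smallest p, and the 3 genes most like each actin, of which 1 is not reported here. Tagln, Cnn1 and Srf after TCDD, and the other library features, were named after their values were seen. Alternatives were RLE and upper-quartile factors, limma-voom (limma 3.58.1), DESeq2 1.42.0, no filter, at least 1 CPM in 2 libraries, only the groups compared, the replicate number as a block, an offset for the GC trend (loess of span 0.3, GC content for 95.87% of tested genes), both together, removal of the 3 libraries that stood apart, and each library left out in turn. A lone library was then assumed to vary like the other groups.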

Additional observations from a re-analysis of the deposited data

Results flagged for a closer look

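Acta1 was picked out because its change against DMSO had opposite directions at different lengths of exposure. The log2 fold change was 0.46 at 24 h and 0.82 at 96 h, with both TCDD libraries above both DMSO libraries, and −0.34 at 72 h, with both below. All 3 comparisons share the DMSO libraries, and Acta1 had a GC trend of 0.30 log2 units in TCDD 24 h replicate 1. The difference between times was tested directly, in comparisons chosen after the values had been seen: it was −0.79 from 24 to 72 h (edgeR adjusted p = 0.201) and 1.15 from 72 to 96 h (edgeR adjusted p = 0.935), and neither passed.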

How the results depend on the processing

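Between ES and DMSO cells, 3 to 6 actins passed under every alternative (3 to 4 with 1 library left out), and Acta1, Acta2 and Actg2 were among them in each. For 72 and 96 h against 24 h of TCDD, the count was 0 throughout. Against DMSO, the count of 0 became 1 at 24 h without the 3 libraries that stood apart. At 72 h it became 1 with DESeq2 and 2 without those 3 libraries, and it ran from 0 to 1 with 1 library left out. At 96 h it became 1 with DESeq2 and with the GC offset, and 5 with only the groups compared and without those 3 libraries, and it ran from 0 to 1 with 1 library left out. From 24 to 72 h and from 72 to 96 h it became 1 without those 3 libraries, and in the former also 1 with only the groups compared, and both ran from 0 to 1 with 1 library left out. The cause was not tested. The later libraries' lower muscle share (−1.27 percentage points) was −1.33 with coding length and with no length scaling, and ran from −1.55 to −1.01 with 1 library left out. Without TCDD 24 h replicate 1 and TCDD 72 h replicate 1, chosen after seeing the data, it was −1.17.

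The labels do not say that the replicate numbers pair the libraries. Deviations of same-numbered libraries correlated from −0.75 to 0.45. Features of single libraries, such as the GC trend, enter these values, so they cannot settle whether the numbers pair libraries. With the number as a block, the 4 actin calls between ES and DMSO cells held in number, 0 actins passed elsewhere, and the calls over all genes were 3728 in place of 4697 for DMSO against ES and 0 in place of 7 and 13 at 72 and 96 h.

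Signs turned only for small changes that did not pass. The later libraries' higher Actc1 share (2.71 percentage points) was 2.06 to 3.24 with 1 library left out and 2.26 without TCDD 24 h replicate 1 and TCDD 72 h replicate 1. The exact permutation p values there, 0.0571 and 0.1, are the smallest those designs allow and say nothing about stability. With 1 library left out, Actb in DMSO against ES ran from −0.11 to 0.37 (lowest without ES replicate 1). Actg2 at 24 h ran from −0.55 to 0.01 (highest without DMSO replicate 1), and Actg1 at 72 h from −0.20 (without TCDD 72 h replicate 2) to 0.29. For 72 and 96 h against 24 h, without the 3 libraries that stood apart, Acta1 was 0.05, Actg2 0.10, Actb 0.14 and Actg1 0.06. There Acta1 ran from −0.46 to 0.04 and Actb from −0.15 to 0.11 with 1 library left out (highest without TCDD 24 h replicate 1), and Actb was 0.03 without TCDD 72 h replicate 1, 0.00 with upper-quartile factors, 0.01 with the 1 CPM filter, 0.05 with the GC offset and 0.04 with offset and block. From 24 to 72 h Actc1 was −0.26 and −0.20 without TCDD 24 h replicate 2 and TCDD 72 h replicate 1 (at most 0.42), and Actb 0.08 without the 3 libraries. The difference in the Actg2 share became 0.0744, 0.00978 and 0.0181 without replicate 1 of DMSO, of TCDD 72 h and of TCDD 96 h, and was −0.0891 at the lowest.

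The number of calls over all genes moved with the libraries in the fit: 1902 to 8027 for DMSO against ES, 0 to 766 at 24 h, 0 to 1967 at 72 h, 0 to 4397 at 96 h, and 0 to 2019 for 72 and 96 h against 24 h. Depth limits Actg2 and Actc1 most, with 4 and 16 counts over the ES libraries.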
